A study of Homo sapiens with 3 samples.

Results

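The promoters of 10 genes that encode titin and other proteins of the Z-disc or attached to it, *TTN*, *ACTN2*, *LDB3*, *CSRP3*, *MYOZ2*, *TCAP*, *NEXN*, *DES*, *FLNC* and *BAG3*, were followed in promoter capture Hi-C (PCHi-C) of cardiomyocytes (hESC-CMs) that had been made from a human embryonic stem cell line. In PCHi-C, chromatin contacts are fixed with formaldehyde, the DNA is cut with HindIII and religated, and ligation products that contain a promoter fragment are captured and sequenced. The promoter fragment of a gene was the HindIII fragment that held an annotated transcript start of the gene and was listed as the promoter side of at least 1 call. By this rule 11 of the 19075 promoter fragments of the data set belonged to the 10 genes, with *DES* holding 2 of them, and together they had 193 interactions of 200587 in all. A fragment in contact with a promoter is called a promoter-interacting region (PIR), and each interaction carries a CHiCAGO score, a weighted p-value for an excess of read pairs over the background at that distance on a negative log scale, listed only from a score of 5 upwards. The cells were of 1 line, WA09 (H9), at passage 32, untreated by any test agent, and there were 3 biological replicates of the same 1 condition. They had been enriched in medium with 4 mM lactate in place of glucose for 6 days, with a stated purity of at least 80 to 90% by flow cytometry and qPCR with myosin heavy chain and TNNT2 as the markers, and were fixed in 2% formaldehyde for 10 min. The calls hold no expression values, so the cell type was not checked here, and the labels do not say whether the replicates came from separate differentiations.

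The Z-disc is the border of the sarcomere, where thin filaments of neighbouring sarcomeres are cross-linked and titin is anchored. α-Actinin, encoded by *ACTN2*, cross-links the actin filaments there, and titin runs from the Z-disc to the middle of the sarcomere as a molecular spring. Further Z-disc proteins tie these filaments to the cell membrane, to intermediate filaments and to signalling and protein quality control, and many of their genes are mutated in inherited cardiomyopathies. Enhancers of muscle genes can lie far from the promoter they act on, and a loop between both is one way in which they are thought to reach it.

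The promoters of *TTN* and *MYOZ2* are shown because they share a sequence feature that is rare among promoters, a box of the kind bound by MEF2, a family of muscle transcription factors. RefSeq promoter windows of 300 bases (GRCh38.p14), with 250 bases before the start and 50 after it, were at hand for 7 of the 10 genes, and *CSRP3*, *TCAP* and *DES* had no entry. A MEF2 box was present in the windows of *TTN* and *MYOZ2* and in 0.572% of all 35116 windows (201). The 250 bases before the start are printed 5′ to 3′ on the strand of the gene, from chr2:178807424-178807673 (minus strand) and chr4:119135582-119135831 (plus strand), with the MEF2 box in capitals.
TTN: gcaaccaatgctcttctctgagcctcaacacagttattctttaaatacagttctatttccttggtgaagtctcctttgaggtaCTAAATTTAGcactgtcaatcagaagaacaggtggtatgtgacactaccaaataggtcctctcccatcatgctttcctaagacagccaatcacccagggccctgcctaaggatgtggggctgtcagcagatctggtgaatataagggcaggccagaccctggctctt
MYOZ2: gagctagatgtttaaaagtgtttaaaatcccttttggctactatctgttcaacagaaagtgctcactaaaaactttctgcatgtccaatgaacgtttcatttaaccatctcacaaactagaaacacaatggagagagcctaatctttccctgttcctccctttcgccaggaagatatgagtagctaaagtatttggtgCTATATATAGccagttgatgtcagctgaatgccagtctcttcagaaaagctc
The box lay 167 to 158 bases before the *TTN* start and 52 to 43 bases before the *MYOZ2* start. Of the other motifs searched on both strands, a CArG box, the site of serum response factor, was found in both *LDB3* windows and in 1.29% of all windows. The TEAD motif GGAATG was found in the windows of *FLNC*, *NEXN* and *TTN* and in 14.0% of all windows. No match was found in a window of these genes for the motif AGATAA of the GATA factors (in 10.3% of all windows), the T-box motif (0.98%), the NK2 motif CACTTNA (10.2%) or the CTCF core (2.41%). Such matches describe letters only.

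At the other end of the contacts, the interacting fragments that all 3 replicates called are the best supported. Those short enough to be printed whole are given as examples and are not of usual length. The 46 PIRs of these promoters called in all 3 replicates had a median length of 2603 bases. A total of 6 PIRs of these promoters called in all 3 replicates were at most 300 bases long, and the 5 of them that overlap no annotated exon are given from GRCh37 on the plus strand with the 5 bases left by HindIII in capitals. They lie between *WAPL* and *OPN4* (*LDB3* PIR, chr10:88348419-88348602), in an intron of *SEC24D* (the first *MYOZ2* PIR, chr4:119663540-119663737), between *SYNPO2* and *MYOZ2* (the second and the third *MYOZ2* PIR, chr4:119990215-119990412 and chr4:120021546-120021706) and between *GARIN1A* and *GARIN1B* (*FLNC* PIR, chr7:128332741-128332997).
LDB3 PIR: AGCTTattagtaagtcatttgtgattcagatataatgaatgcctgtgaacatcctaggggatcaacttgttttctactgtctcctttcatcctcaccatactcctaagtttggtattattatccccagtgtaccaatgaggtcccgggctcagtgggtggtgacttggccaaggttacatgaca
The first MYOZ2 PIR: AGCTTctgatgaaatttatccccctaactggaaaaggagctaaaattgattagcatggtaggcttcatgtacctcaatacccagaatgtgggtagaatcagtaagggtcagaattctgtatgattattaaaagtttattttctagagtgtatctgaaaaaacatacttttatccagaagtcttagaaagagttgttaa
The second MYOZ2 PIR: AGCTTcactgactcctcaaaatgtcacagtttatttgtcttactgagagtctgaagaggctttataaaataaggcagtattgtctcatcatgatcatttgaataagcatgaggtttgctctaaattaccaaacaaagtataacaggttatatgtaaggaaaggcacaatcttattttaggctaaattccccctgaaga
The third MYOZ2 PIR: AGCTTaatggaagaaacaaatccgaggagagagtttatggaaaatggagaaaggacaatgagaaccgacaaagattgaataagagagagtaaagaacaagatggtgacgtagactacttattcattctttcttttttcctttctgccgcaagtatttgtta
FLNC PIR: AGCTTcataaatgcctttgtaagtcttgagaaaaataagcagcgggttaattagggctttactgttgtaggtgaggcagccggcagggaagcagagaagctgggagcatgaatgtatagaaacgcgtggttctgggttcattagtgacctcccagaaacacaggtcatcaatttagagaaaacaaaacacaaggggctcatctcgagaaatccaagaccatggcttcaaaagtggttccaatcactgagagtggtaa
None of these 5 held a match to the 7 motifs. The sixth, the *FLNC* PIR chr7:128371621-128371781 which overlaps exon annotation of *GARIN1B*, held a GATA match, which makes 1 of 6. Over the 2021 fragments of at most 300 bases called as PIR in all 3 replicates for any promoter, 19.8% held a GATA match and 11.9% a TEAD match.

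The 11 promoter fragments differed widely in the number of interactions. The replicates listed 104, 106 and 116 interactions of these fragments, a mean of 109 ± 6.43 (SD, n = 3), and over the replicates together all 3 replicates had 47 of the 193 distinct interactions, while 39 came from 2 replicates and 107 from 1. The share in all 3 replicates was 24.4% (95% Wilson interval 18.8 to 30.9%, for counting error only), beside 24.0% of all interactions. The median over the 11 fragments was 10 interactions, against 6 over all promoter fragments, and 1 interaction in all 3 replicates, as over all promoter fragments. *MYOZ2* alone had 105 interactions, and *FLNC*, the next, had 22. Without *MYOZ2* the other 10 fragments had 88 interactions, of which 19 (21.6%) were in all 3 replicates. *ACTN2*, *CSRP3* and *TCAP* had 2 each. At least 1 interaction in all 3 replicates was found for 7 of the 10 genes, all but *CSRP3*, *TCAP* and *BAG3*, and for 55.9% of all 15515 protein-coding genes with a promoter fragment (51.9% of all promoter fragments). Since the data hold a single condition, no difference between conditions was tested and the shares are given as descriptions.

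**Figure D1:**
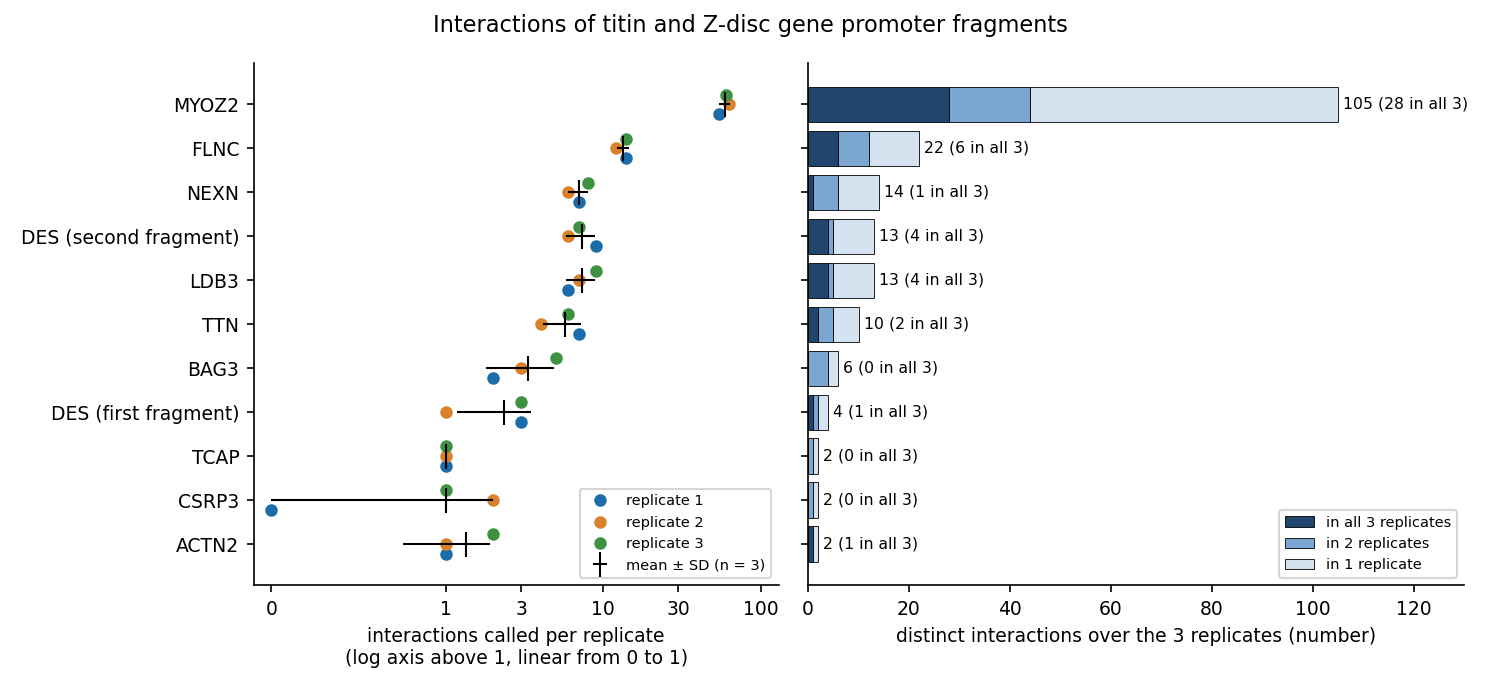
Interactions of the 11 promoter fragments. The left panel gives the number called in each replicate (points) with the mean and SD (n = 3) on an axis that is logarithmic above 1 and linear from 0 to 1; the right panel gives the number of distinct interactions called in 3, 2 or 1 replicates. *MYOZ2*, with 105 interactions and 28 of them in all 3 replicates, lies apart from the other 10 fragments, which had 2 to 22.

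*MYOZ2* encodes myozenin 2 (calsarcin-1), which binds α-actinin and the phosphatase calcineurin at the Z-disc. Its promoter fragment, chr4:120055878-120058666, is 2789 bases long and holds the only annotated start of the gene and no start of another gene. It had 54, 63 and 60 interactions in replicates 1, 2 and 3, a mean of 59.0 ± 4.58 (SD, n = 3), and 28 of its 105 interactions (26.7%) were called in all 3 replicates. Only 79 promoter fragments in the data set (0.414%), itself included, had as many interactions. Of the 59 interactions over at most 1 Mb, 49 lay upstream of the promoter and 10 downstream.

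The contacts of *MYOZ2* formed runs of neighbouring HindIII fragments. The gene next upstream, *SYNPO2*, encodes synaptopodin 2, an actin-bundling protein that is itself found at the Z-disc. Between 86.5 and 164 kb from the *MYOZ2* promoter, 23 of the 26 HindIII fragments over an 81.5 kb stretch of *SYNPO2* were called, 15 of them in all 3 replicates, with 18, 20 and 18 calls per replicate (18.7 ± 1.15, SD, n = 3). Of these 23 PIRs, 20 were also called for other promoter fragments. The highest mean score of the *MYOZ2* PIRs called in all 3 replicates was at chr4:119961885-119965943, which overlaps an exon of *SYNPO2* 93.4 kb upstream and scored 13.0, 15.1 and 16.1 (14.7 ± 1.57, SD, n = 3) in the replicates. The fragment beside it, chr4:119965944-119968820, was intronic and scored 15.0, 14.3 and 14.2, and the one after that, chr4:119968821-119972767, scored 12.9, 14.6 and 12.2. All 3 fragments thus scored above 12 in every replicate, while the other PIRs of *MYOZ2* in *SYNPO2* had mean scores down to 5.00.

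A run farther upstream lay in *SEC24D*, which encodes a coat protein of vesicles that leave the endoplasmic reticulum. There 16 of 18 fragments over 43.8 kb were called, between 364 and 403 kb from the promoter, with 9, 13 and 12 calls per replicate and 6 in all 3. Of these 16 PIRs, 14 were also called for other promoter fragments. The highest mean score of this run was at chr4:119688920-119690576, which scored 10.7, 9.66 and 7.93 in the replicates. The stretch between both runs, which includes the start of *SYNPO2*, held no called PIR of *MYOZ2*. In the intergenic stretch between *SYNPO2* and *MYOZ2* there were 10 PIRs, 6 in all 3 replicates, with 7, 9 and 8 calls. The highest mean score there, 7.95, belonged to the second *MYOZ2* fragment printed above, and 8 of the 10 formed a run in which 8 of 13 HindIII fragments over 24.1 kb were called. Downstream, 4 of 4 fragments at the end of *USP53* and over *C4orf3* were called in at least 1 replicate. Of these the fragment chr4:120212668-120216035, which overlaps an exon of *USP53*, was in all 3 replicates, at 7.92, 7.71 and 7.64. Within *MYOZ2* itself no replicate listed a PIR, and the calls on the merged replicates had 1 there, at chr4:120071063-120072411 with a score of 5.57. The limit of 10 kb between neighbouring PIRs of a run and these genes were chosen after the values were seen.

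**Figure D2:**
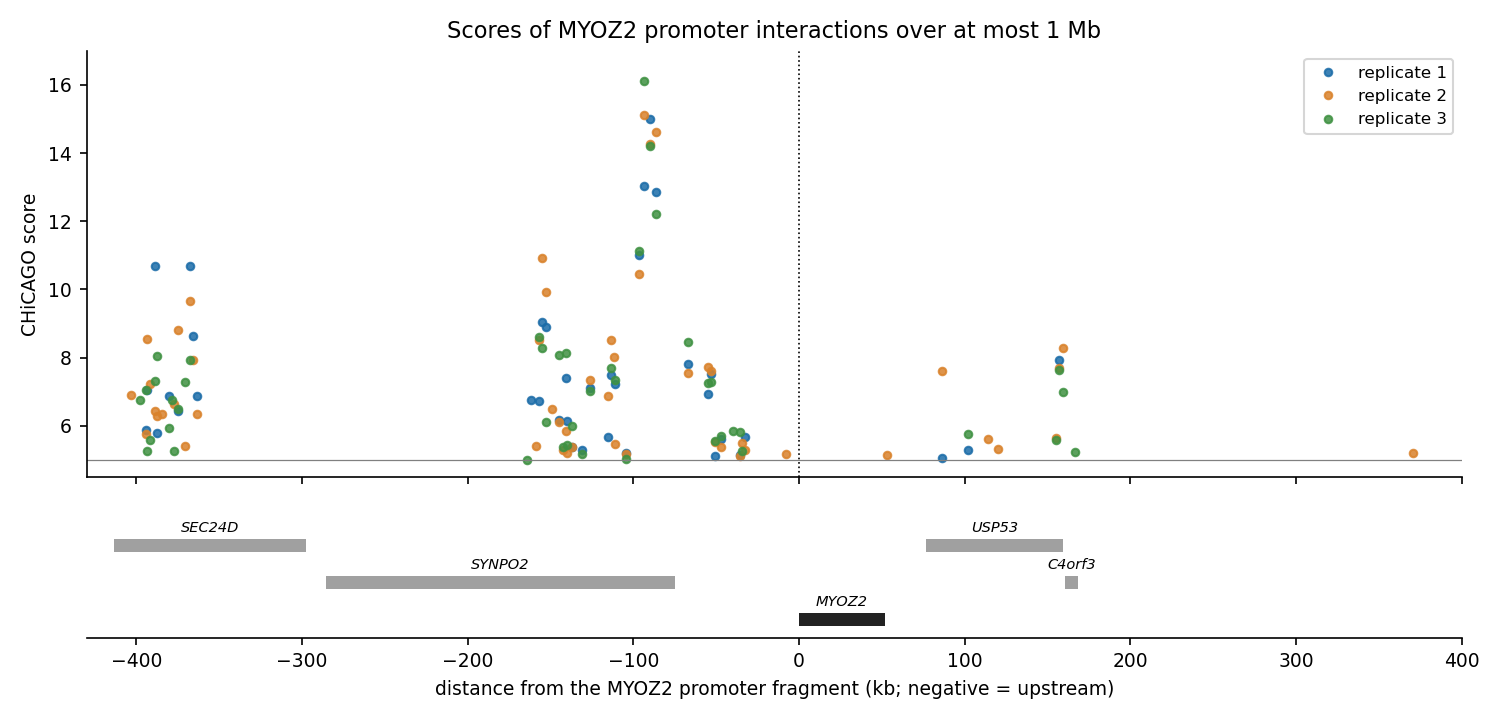
CHiCAGO score (vertical axis, listed from 5) of each *MYOZ2* interaction over at most 1 Mb, by replicate, against the distance in kb from the *MYOZ2* promoter fragment, negative values being upstream. The bars below show the extent of *MYOZ2* (black) and of its neighbours (grey). The 3 fragments with all scores above 12 lie near the *MYOZ2* end of *SYNPO2*, and the calls in *SEC24D* form a separate group at 364 to 403 kb.

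The promoter fragment of *C4orf3* and *MYOZ2* had 6 PIRs in common among those called in all 3 replicates, which is 21.4% of the 28 of *MYOZ2* and 66.7% of the 9 of *C4orf3*. Over the union of the replicates 32 PIRs were shared. The promoter fragment of *SYNPO2* itself shared 1 PIR in all 3 replicates with *MYOZ2*, and that was the only such PIR of *SYNPO2*. Contacts of *MYOZ2* over more than 1 Mb behaved differently: 45 were listed, 44 of them in 1 replicate only and none in all 3. They include the highest single mean score of this promoter, 16.8, for a fragment in an intron of *ANK2* at 5981 kb that only replicate 3 called, and 10.7 and 10.5 for fragments in introns of *CAMK2D* called in replicate 2 and replicate 1 respectively. A fragment in an intron of *TRIM2* at 34108 kb scored as high, at 10.7 in replicate 2 only. None of the 45 contacts was called on the merged replicates.

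*TTN* encodes titin. Its promoter fragment, chr2:179694570-179697266, holds the start of the most upstream transcript of the gene on the minus strand and that of *RNU7-104P*, and its calls cannot be divided between both. The other 10 distinct *TTN* starts annotated inside the gene lay outside it. The fragment had 7, 4 and 6 interactions in the replicates (5.67 ± 1.53, SD, n = 3), 10 in all and 2 in all 3 replicates. Of these 10, 7 lay in a run of 32.5 kb in *SESTD1*, a gene whose product has a lipid-binding SEC14 domain and spectrin repeats, 277 to 305 kb upstream, where 7 of 12 HindIII fragments were called. Of the 7, 4 were also called for other promoter fragments, that of *CCDC141* among them. The intronic fragment chr2:179992809-179994467, 298 kb upstream, scored 9.08, 7.69 and 7.21 (7.99 ± 0.971, SD, n = 3). The fragment chr2:179985855-179990710 is itself a promoter fragment and scored 6.33, 5.35 and 5.89, close to the listing limit in all 3 replicates. It holds a transcript start of *SESTD1* and a start of snoU13. This *SESTD1* start lies inside the gene and not at either of its ends. All 7 were called in replicate 1, against 3 in replicate 2 and 4 in replicate 3, while 5 were called on the merged replicates.

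No PIR of the *TTN* promoter fragment lay within the 304814 bases of *TTN*. Inside the gene, 6 other promoter fragments had 56 PIRs. Each of the 20 that recurred in all 3 replicates was of a single fragment, chr2:179499966-179504080, which holds a start of the antisense transcript gene *TTN-AS1*, named here after its values were seen. All of its 43 interactions lay inside *TTN*, with 31, 40 and 24 calls in the replicates (31.7 ± 8.02, SD, n = 3) at 3.41 to 129 kb. Those in all 3 replicates had mean scores from 5.46 to 11.2. The *TTN-AS1* fragment and the *TTN* promoter fragment, 194 kb apart, were not joined in any replicate.

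*ACTN2*, *FLNC* and *NEXN* encode proteins that bind or cross-link actin. The *ACTN2* promoter fragment, chr1:236840537-236853707, held 11 distinct starts of the gene and had 1, 1 and 2 interactions in the replicates, both in *RYR2*, the gene of the ryanodine receptor that releases calcium from the sarcoplasmic reticulum. The fragment chr1:237716556-237721963, in an intron of *RYR2* 872 kb downstream and holding a start of *SNORA25*, was joined to *ACTN2* in all 3 replicates at 5.73, 6.49 and 5.15 (5.79 ± 0.672, SD, n = 3). It was a PIR of 8 promoter fragments in all. That interaction was listed each time with the *ACTN2* fragment on the interacting side. The other PIR, over an exon of *RYR2* at 885 kb, was called in replicate 3 only, at 6.54. The merged replicates listed 3 further *ACTN2* contacts, from chr1:236769493 to chr1:236772751 and upstream of the promoter, at scores of 6.26, 5.46 and 5.08, that no replicate had.

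*FLNC* encodes filamin C, an actin cross-linker of striated muscle. Its promoter fragment, chr7:128462602-128474969, had 14, 12 and 14 interactions in the replicates (13.3 ± 1.15, SD, n = 3), and 21 of its 22 distinct PIRs lay upstream, all within 376 kb. A run of 13.3 kb from *GARIN1B* into *CALU* was called without a gap, with 6 of 6 HindIII fragments, 4 of them in all 3 replicates and 5, 5 and 6 calls per replicate. The highest mean score there was at chr7:128380115-128381988 in an intron of *CALU*, the gene of the calcium-binding protein calumenin, with 5.77, 7.43 and 8.60 (7.27 ± 1.42, SD, n = 3). The *CALU* promoter fragment beside it scored 7.09, 5.56 and 7.20. A second run over *GARIN1A* and the stretch beyond it, 130 to 158 kb upstream, had 6 of 6 fragments called but 1 in all 3 replicates, the 257-base fragment printed above, at 5.34, 5.87 and 7.21. All 6 PIRs of each of these runs were also called for other promoter fragments. The run nearest to *FLNC*, at 34.4 to 59.3 kb, was called in replicate 1 alone (3 of 5 fragments, mean scores from 5.22 to 5.38). The promoter fragment of *ATP6V1F* and *FLNC-AS1* had 4 PIRs in common with *FLNC* among those in all 3 replicates, 66.7% of the 6 of *FLNC* and 57.1% of the 7 of the other fragment.

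*NEXN* encodes nexilin, an actin-binding protein of the Z-disc. Its promoter fragment, chr1:78353477-78362983, also holds a start of *NEXN-AS1* and had 7, 6 and 8 interactions (7.00 ± 1.00, SD, n = 3). Although it had 14 distinct interactions, 1 was in all 3 replicates, the intronic fragment chr1:78300496-78301221 of *MIGA1* (mitoguardin 1, of the mitochondrial outer membrane), 57.4 kb upstream, at 5.43, 8.91 and 6.95 (7.10 ± 1.74, SD, n = 3). It belonged to a run of 15.0 kb in *MIGA1* in which 6 of 7 fragments were called, with 4, 4 and 2 calls per replicate. All 9 interactions within 1 Mb were upstream. The *USP33* and *MIGA1* promoter fragments were each called in replicates 2 and 3, at 9.23 and 6.30 and at 9.50 and 5.45, and not in replicate 1. The merged replicates kept 3 of the 14.

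*LDB3*, *CSRP3* and *TCAP* encode adaptors, of which the *LDB3* product (ZASP) binds α-actinin, the *CSRP3* product is muscle LIM protein, and the *TCAP* product, telethonin, caps the end of titin in the Z-disc. The *LDB3* promoter fragment, chr10:88420048-88440937, holds 11 distinct *LDB3* starts and a start of ENSG00000289258, and had 6, 7 and 9 interactions (7.33 ± 1.53, SD, n = 3). All 4 in all 3 replicates lay upstream. The fragment chr10:88354372-88356906, between *WAPL* and *OPN4* at 74.9 kb, scored 9.93, 11.0 and 8.57 (9.82 ± 1.20, SD, n = 3), and the 184-base fragment printed above, at 82.0 kb, scored 9.13, 8.45 and 8.68. The other 2 were adjacent and nearer, chr10:88409547-88411698 at 5.68, 5.50 and 6.61 and the promoter fragment of *OPN4* (melanopsin) at 6.16, 6.16 and 5.95. The calls at 74.9 and 82.0 kb were above those of the nearer pair in every replicate.

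The other adaptors had few calls. The *CSRP3* promoter fragment, chr11:19224055-19239054, held 1 of 6 annotated starts, the most upstream, and had 0, 2 and 1 interactions in the replicates. The other 5 starts, all of protein-coding transcripts, lay just outside it, at chr11:19223523-19223577. The few calls are thus not a count of contacts of those 5 starts. A fragment over an exon of *NAV2*, 836 kb away, was called at 6.50 and 5.89 in replicates 2 and 3, and the fragment with the highest mean, over *MICAL2* at 7116 kb, was in replicate 2 alone at 6.90. The *TCAP* promoter fragment, chr17:37807897-37826830, also holds starts of *PNMT* and *STARD3*, so its calls cannot be assigned to *TCAP*, and it had 1 interaction in each replicate. These were the intergenic fragment chr17:37905793-37906190 between *GRB7* and *IKZF3* in replicates 1 and 2, at 5.95 and 5.21, and a fragment of chromosome 1 in replicate 3, at 5.42.

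*DES* encodes desmin, the intermediate filament protein that links neighbouring Z-discs, and *BAG3* a co-chaperone in the clearance of damaged Z-disc proteins. *DES* had 2 adjacent promoter fragments. The first, chr2:220282394-220285998, holds 4 of its 5 starts and had 3, 1 and 3 interactions. The second, chr2:220285999-220296217, holds only the start of a transcript not annotated as protein-coding, with starts of ENSG00000234638 and ENSG00000280323, and had 9, 6 and 7. Within 1 Mb all 9 interactions of both were downstream. On the merged replicates the second fragment also had 3 contacts upstream, 16.4 to 25.6 kb away, at scores of 5.63 to 6.30, which no replicate listed. The highest mean score in all 3 replicates was between the second fragment and chr2:220336207-220365439, at 9.54, 9.39 and 9.85 (9.59 ± 0.235, SD, n = 3). That PIR holds a start inside *SPEG*, a muscle protein kinase gene that begins outside the PIR. It also holds starts of *GMPPA*, *SPEGNB*, ENSG00000268603 and ENSG00000286143. The first fragment was joined to the same PIR in replicates 1 and 3 only, at 6.02 and 5.43. Its interaction in all 3 replicates was with chr2:220399433-220405718 over *ASIC4* and *CHPF*, at 5.58, 7.29 and 6.48 (6.45 ± 0.855, SD, n = 3), and the second fragment was joined to the same PIR at 7.33, 5.89 and 5.72. The promoter fragment of *ASIC4* was joined to the second fragment at 6.14, 7.09 and 6.28.

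The highest scores of any of these promoters were again not shared by all replicates. The second *DES* fragment was joined to chr6:31208480-31210041, between *POU5F1* and *HLA-C* on another chromosome, at 17.8 in replicate 1 and 17.2 in replicate 3, without a call in replicate 2, and the merged replicates gave 7.34. No other promoter fragment had that PIR. The same *DES* fragment was joined to an intron of *CGREF1*, 192953 kb away, at 12.6 in replicate 3 only.

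*BAG3*, with the promoter fragment chr10:121406566-121411829, had 2, 3 and 5 interactions (3.33 ± 1.53, SD, n = 3), none of them in all 3 replicates. Of its 6 PIRs, 5 lay in a run of 22.9 kb in *MCMBP*, 197 to 217 kb downstream, where 8 HindIII fragments lie. All 5 were also called for other promoter fragments, and that of *TIAL1* shared 5 of the 6 *BAG3* PIRs. In that run 4 PIRs were called in 2 replicates each, and all 5 on the merged replicates. The one with the highest mean, chr10:121625147-121627589, was called at 6.93 and 8.06 in replicates 2 and 3 and at 7.33 on the merged replicates. When a call on a fragment of the same promoter within 5 kb counted as a match, 4 of the 6 were matched in all 3 replicates. This looser rule can only raise the count, and no share over all promoter fragments is given for it.

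**Figure D3:**
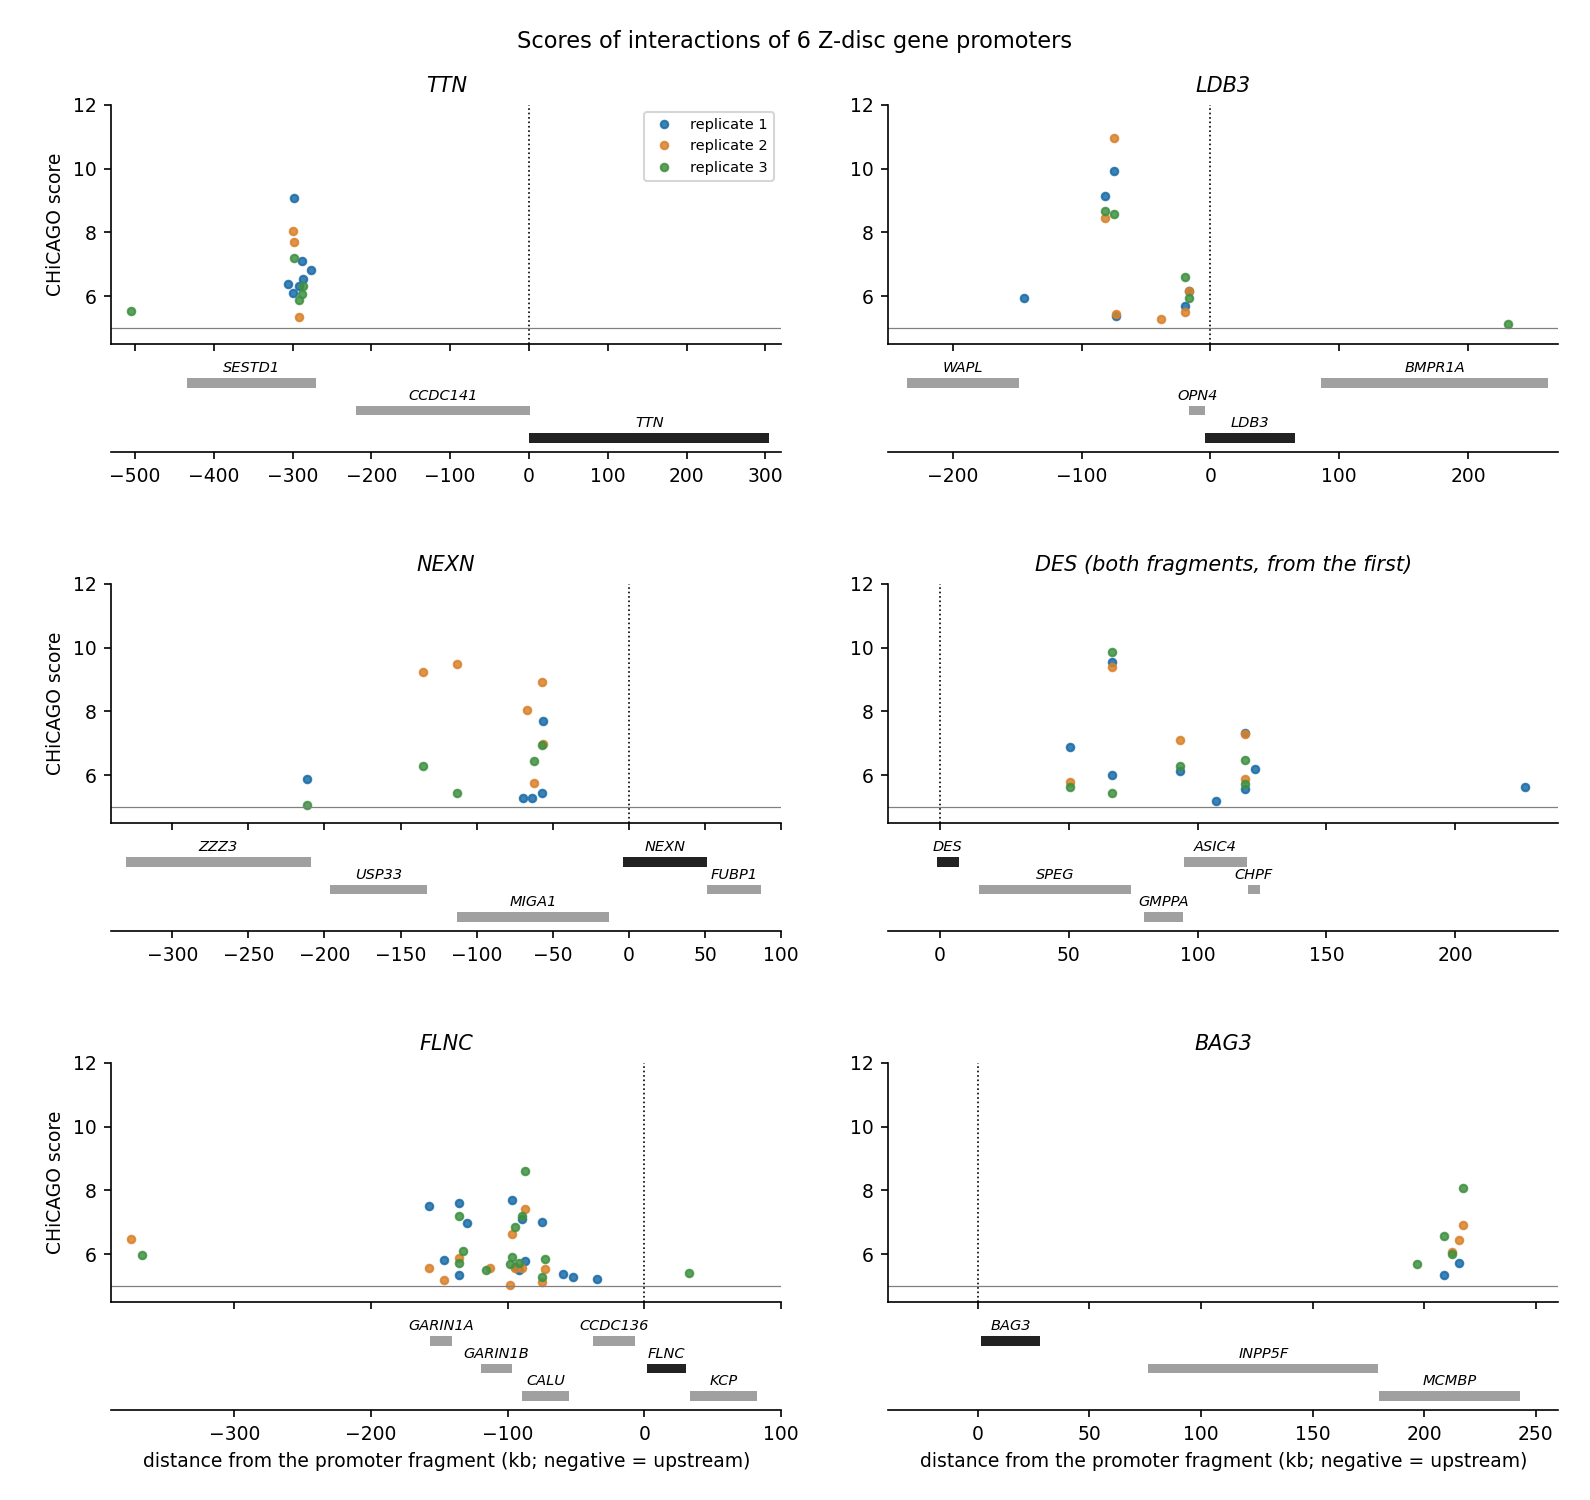
CHiCAGO scores (vertical axis, listed from 5) by replicate against the distance in kb from the promoter fragment, negative values being upstream, for the interactions over at most 1 Mb of *TTN*, *LDB3*, *NEXN*, *DES*, *FLNC* and *BAG3*. The bars below show the gene (black) and neighbouring genes (grey). Within this distance the calls of *TTN*, *NEXN*, *DES* and *BAG3* lie on one side, while *LDB3* and *FLNC* have 1 downstream call each beside those upstream.

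Every interaction of these promoters that was called in all 3 replicates spanned at most 1 Mb. Of the 124 interactions over at most 1 Mb, 47 (37.9%) were called in all 3 replicates, beside 34.0% of all interactions over such distances. Without *MYOZ2*, the count was 19 of 65 (29.2%), below the share of all interactions, and *MYOZ2* alone had 28 of 59 (47.5%). Of the 66 over more than 1 Mb, none was, which allows a share of up to 4.55% by a limit of 3 counts, beside 11.8% of all interactions that long. Of the 66, 65 were in 1 replicate only, and none was called on the merged replicates. As many as 45 of the 66 were of *MYOZ2*, and without it the count was 0 of 21, which allows a share of up to 14.3% and so cannot be told from the 11.8%. Under 100 kb 23 of 45 interactions were in all 3 replicates (51.1%), beside 43.8% over all promoter fragments, and from 100 kb to 1 Mb 24 of 79 (30.4%), beside 33.4%. Without *MYOZ2* these counts were 13 of 29 (44.8%) and 6 of 36 (16.7%). The median distance was 141, 142 and 164 kb in replicates 1, 2 and 3, against 525, 532 and 560 kb for all promoter fragments. Over the union it was 282 kb, and 152 kb without *MYOZ2*, against 691 kb for all promoter fragments. Contacts with another chromosome made up 3 of the 193, against 3.87% of all interactions.

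**Figure D4:**
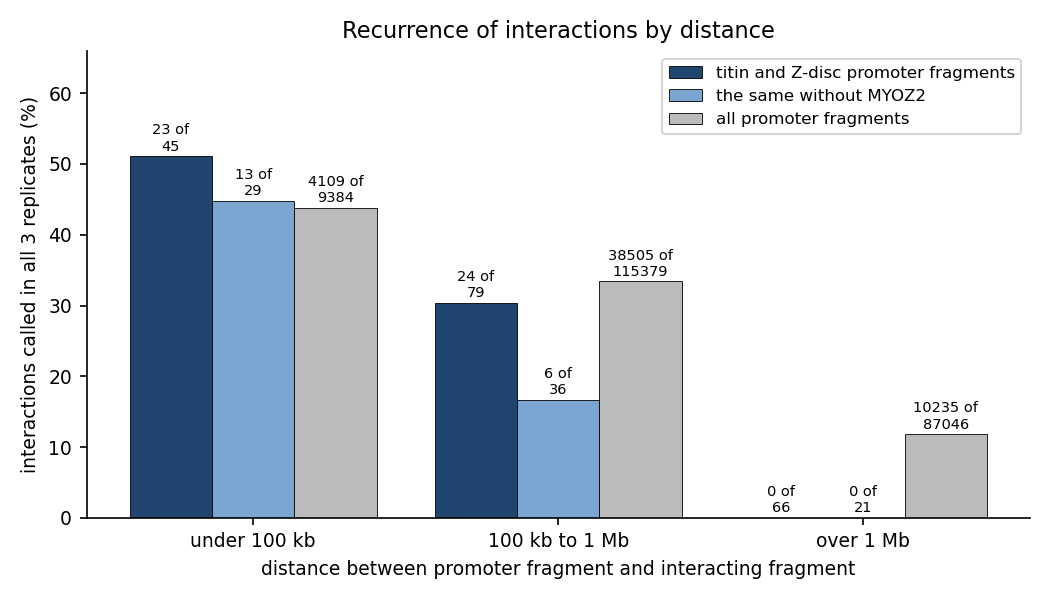
Share of interactions called in all 3 replicates (vertical axis, %) by distance, for the 11 promoter fragments, for these without *MYOZ2* and for all promoter fragments, with the counts above the bars. Over more than 1 Mb the share was 0 of 66 and, without *MYOZ2*, 0 of 21, beside 11.8% for all promoter fragments.

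The position of the PIRs relative to the genes was uneven. None of the 193 interactions had its PIR within the gene it belonged to, beside 4.87% for all promoter fragments with a protein-coding start. By a limit of 3 counts that allows a share of up to 1.55%. Such limits take interactions as independent, which those of a run of neighbouring fragments are not. Of the 193, 105 were of *MYOZ2*, and without it the count was 0 of 88. The difference from the 4.87% was not tested. Over all promoter fragments this share was higher for long genes, and a link with gene length was not tested for these 10 genes. For *TTN* and *ACTN2*, each over 100 kb long, it was 0 of 12, which allows a share of up to 25.0% and so cannot be told from the 15.6% for all protein-coding genes of at least 100 kb. Within 1 Mb, 95 PIRs were upstream and 29 downstream (76.6% upstream), beside 47.5% upstream for all promoter fragments with protein-coding starts on a single strand, and *MYOZ2* and *FLNC* supplied 70 of the 95. All interactions within 1 Mb were on one side for 4 of the 7 fragments that had at least 5 of them, beside 52.2% of all such fragments, a share close to that of these fragments. The PIR was itself a promoter fragment in 19 of the 193 interactions (9.84%), against 17.5% over all. The direction turned without *MYOZ2*, at 17 of 88 (19.3%). Of the 19, *MYOZ2* had 2 and *FLNC* and *NEXN* 4 each. No pair of these promoter fragments was joined, and no PIR was called for more than 1 of the 10 genes. The *DES* fragments are adjacent, and the 10 genes lie on different chromosomes or far apart on the same one. Neither absence is therefore a result about these genes.

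The interactions called in all 3 replicates are by that choice at 5 or above in each, which limits how far their scores can differ. Over the 47, the median SD of the score was 0.731 and the highest 2.25, with mean scores from 5.14 to 14.7 and a median of 6.95. All 47 were called on the merged replicates, 42 of them at a score above the mean of the replicates. A call with a score from 5 to 6 in a replicate belonged to an interaction in all 3 replicates in 45 of 148 cases (30.4%), a call from 6 to 7 in 22 of 68 (32.4%), a call from 7 to 10 in 58 of 86 (67.4%) and a call of at least 10 in 16 of 24 (66.7%). Over all promoter fragments these shares were 19.5%, 35.3%, 56.1% and 82.0%. Without *MYOZ2*, 4 calls were left at 10 or above, and 1 of them belonged to an interaction in all 3 replicates. Where a replicate lacks a call, the score may be below 5, and a contact missing from 1 replicate is not shown to be absent there. *MYOZ2* had the second shortest of the 11 promoter fragments, and Spearman's rho between the length of the fragment and its number of interactions was -0.36 over the 11 and -0.13 over all promoter fragments, given as a description.

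The other genes of the Z-disc were read from a list of 27, of which 26 had a promoter fragment and *MYOT* had none with a call. They had 365 interactions, 85 of them in all 3 replicates, with a median of 11 per gene beside 11.5 for the 10 genes above and 7 for all protein-coding genes. At least 1 interaction in all 3 replicates was found for 17 of the 26 (65.4%), against the 55.9% given for all protein-coding genes. The 4 with the most in all 3 replicates were *PDLIM5* (27 of 74), *PALLD* (18 of 64), *XIRP1* (7 of 17) and *TRIM54* (6 of 25). *PDLIM5*, which encodes a PDZ-LIM protein that binds α-actinin, had 49, 47 and 51 calls (49.0 ± 2.00, SD, n = 3), and 35 of its 74 PIRs lay in *PDLIM5* itself. Fewer PIRs in the own gene were listed for *PALLD* (5), *CAPZB* (5), *FHL2* (2) and *TRIM54* (2). All other genes of that list had none, like *MYOZ2* with 0 of 105 in a gene of 52.0 kb. *PALLD*, which encodes the actin-bundling protein palladin, had 35, 41 and 34 calls over 3 promoter fragments. Each of *MYOZ2*, *PDLIM5* and *PALLD* thus had at least 34 calls in every replicate, above every other gene of both lists.

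**Figure D5:**
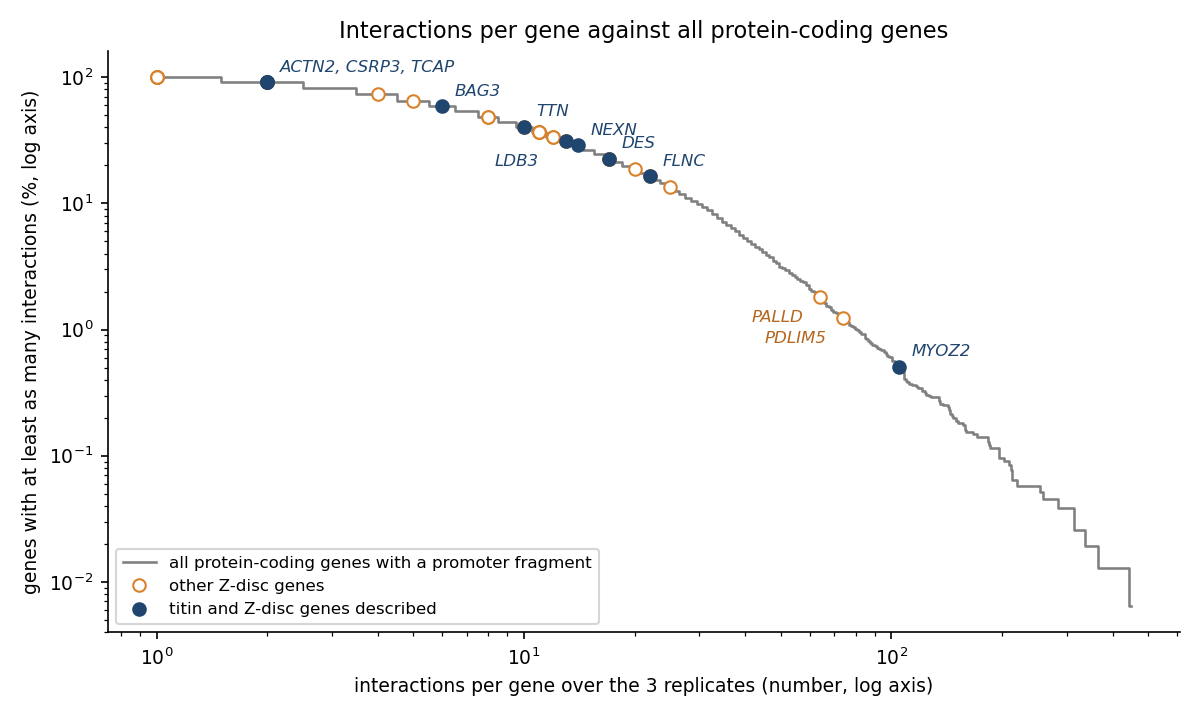
Number of interactions per gene over the 3 replicates (horizontal axis, logarithmic) against the share of protein-coding genes with at least as many (vertical axis, %, logarithmic). Filled points are the 10 genes described, open points the other Z-disc genes with a call, and the line all 15515 protein-coding genes with a promoter fragment. *MYOZ2* lies at 0.509%, and *ACTN2*, *CSRP3* and *TCAP* at 91.5%.

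The same motifs were counted in the sequences of the PIRs, with no test. In the 46 PIRs called in all 3 replicates, GATA matches occurred at 0.750 per kb, against 0.690 per kb in the 35899 PIRs called in all 3 replicates for any promoter, TEAD matches at 0.648 against 0.580 and NK2 matches at 0.667 against 0.766. MEF2 boxes were found 3 times, in 2 of the 46 PIRs (4.35%, against 8.52%), and the CTCF core in 3 (6.52%, against 13.4%). The same 11 promoter fragments in full had 0.629 TEAD matches per kb, against 0.555 over all promoter fragments, and 0.454 GATA matches, against 0.586. MEF2 boxes, 3 in number, were at 0.0262 per kb, against 0.0244, and CArG boxes at 0.0786, against 0.0522. NK2 matches were at 0.612 against 0.745, T-box matches at 0.114 against 0.126 and the CTCF core at 0.0524 against 0.0454. These counts are small, overlap between motifs was not removed, and a match is not a binding site.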

How the data were processed

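The PCHi-C calls, 1 set for each of 3 biological replicates and 1 on the merged replicates, were used as deposited. The authors mapped the reads with HiCUP to GRCh37 and called interactions with CHiCAGO, and each deposited line holds a promoter fragment, an interacting fragment and a CHiCAGO score. Scores start at 5.00, and read counts and depth per replicate are unknown here, so contacts below that score cannot be told from absent ones. The replicates hold 112473, 109731 and 110740 calls, and the merged set 152757.

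Transcript starts and genes were taken from GENCODE 44 lifted to GRCh37. Both line orders of a pair were counted as 1 interaction, calls of the replicates were pooled as a union, and distances run between fragment midpoints. A PIR was in a gene when its midpoint was. Fragment ends were checked against HindIII sites. Of a gene, the PIR with the highest mean score among those in all 3 replicates was named, or among all where there was none, as were promoters joined to it in all 3 replicates; other genes were named after their values were seen. The genes and lists were chosen with earlier results of these data known. No test was run, since there is 1 condition. Counting and motif code was tested on simulated data. Tools were Python 3.11.15, pandas 2.3.3, numpy 2.4.6, scipy 1.17.1 and matplotlib 3.10.9.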

Additional observations from a re-analysis of the deposited data

How the results depend on the processing

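*MYOZ2* had the most interactions of the 10 genes under every alternative tried except the one that leaves it out. The 193 interactions became 68 at a score of at least 7, 15 at a score of at least 10, 124 on the merged replicates, 124 within 1 Mb and 88 without *MYOZ2* (chosen after seeing the data), and 151 to 162 with 1 replicate left out. The share called in all replicates, 24.4%, became 37.9% within 1 Mb (29.2% there without *MYOZ2*), 21.6% without *MYOZ2* and 47.2% when a called fragment within 5 kb counted as a match, and 35.8 to 39.6% with 1 replicate left out, where 2 calls are enough. For the 47.2% no share over all promoter fragments is given. The median distance of 282 kb became 156 kb at a score of at least 7, 378 kb at a score of at least 10, 115 kb on the merged replicates, 130 kb within 1 Mb and 152 kb without *MYOZ2*, and 157 to 213 kb with 1 replicate left out. The share of PIRs in the own gene stayed at 0 except on the merged replicates (0.806%). The share joining 2 promoter fragments, 9.84%, became 8.82% at a score of at least 7, 0 at a score of at least 10, 11.3% on the merged replicates, 6.95% with the gene's fragment on the promoter side only, 9.44% with protein-coding transcript starts only, 8.99% with the most upstream protein-coding start only, 12.1% within 1 Mb and 19.3% without *MYOZ2*, and 10.1 to 11.3% with 1 replicate left out. Of 279 values of single genes under the alternatives, 189 stayed within their limits (1.5 times for a number, the SD of the replicates for a score). With protein-coding starts only, *DES* had 4 interactions in place of 17, since the second fragment then drops out, and with the most upstream protein-coding start only, *ACTN2* had 0 in place of 2. With a gap of 5 or 20 kb in place of 10 kb there were 13 runs of at least 3 PIRs in place of 14. No paired analysis was possible because there is a single group. The listing limit of 5 bounds what can be read from a missing call, most of all for genes with few calls such as *ACTN2*, *CSRP3* and *TCAP*.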
